A study of Mus musculus with 58 samples.

Results

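Nrxn2, which encodes neurexin-2, was followed through single parvalbumin (PV) interneurons of the mouse ventral subiculum. It is 1 gene of the 25648 in the deposited count table and 12 lines of the deposited neurexin isoform table, which give an alpha and a beta value and an included and a skipped value for each of splice sites 1 to 5 (ss1 to ss5). All lines of both tables for Nrxn2 were taken, over the 54 cells whose quality control label is Pass, of 58 cells in all. The 27 female Pass cells came from PV-Cre::Ai9 mice at postnatal day 40 (P40, 17 cells) or P42 (10 cells), and the 27 male Pass cells from PV-Cre::Ai9 mice at P35 (14 cells) or P36 (13 cells). All groups carried both alleles, Cre recombinase under the parvalbumin gene and the Cre-dependent Ai9 reporter, so a cell was marked if the Cre allele had been active in it at any time. The cytosol was drawn into a patch pipette, and each library is 1 cell. The labels name 3 female and 4 male animals without tying cells to them, so cells that share an animal cannot be recognised, and in these groups sex and age cannot be told apart. Cells are numbered here within each sex, and the number only names a cell.

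Neurexins are presynaptic adhesion proteins that reach across the synaptic cleft to neuroligins, leucine-rich repeat proteins, cerebellins and other partners. Each neurexin gene has an upstream promoter for the long alpha form and an internal promoter for the short beta form, which lacks most of the extracellular domains of alpha. Alternative splicing at a small set of sites changes which partners bind, and ss4, which lies in the extracellular domain shared by alpha and beta, is the best known of these switches.

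The forms at ss5 and ss3 differ in the following stretches, read from the annotated mouse transcripts (GENCODE vM21 on GRCm38, plus strand), with the optional bases in capitals and neighbouring bases in lower case. The ss3 line has 20 bases on either side, the ss5 included line has 20 bases upstream only, and the ss5 skipped line has 20 bases upstream and 40 downstream. The ss5 pair is shown because nearly all readable cells used its skipped form, and ss3 because it marks alpha-type RNA. The deposited table gives no coordinates, so the stretches were matched to the site names by their place in the gene and their size. The ss4 exon is held by 6 annotated transcripts and skipped by 2. The ss5 stretch at chr19:6531268-6531843 has 576 bases, of which the first 40 are shown, and is held by 4 transcripts and skipped by 4. The ss3 exon at chr19:6488784-6488810 has 27 bases. The lengths of the ss5 stretch and the ss3 exon are multiples of 3, so the reading frame continues with or without each.
ss5 included: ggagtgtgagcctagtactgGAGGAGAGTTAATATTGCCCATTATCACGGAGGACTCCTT
ss5 skipped: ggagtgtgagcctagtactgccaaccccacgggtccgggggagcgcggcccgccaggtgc
ss3 included: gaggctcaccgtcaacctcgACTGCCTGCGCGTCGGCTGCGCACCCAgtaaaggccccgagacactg

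Nrxn2 (ENSMUSG00000033768.17) spans chr19:6418731-6544169 on the plus strand. The first exon of the beta form lies inside the gene at chr19:6497828-6498531, downstream of ss1, ss2 and ss3 and upstream of ss4 and ss5. A signal at ss1, ss2 or ss3 can therefore come from alpha-type RNA only, whereas ss4 and ss5 are read from both classes. The antisense gene Gm14964 (chr19:6530711-6532011, minus strand) covers the ss5 stretch. The sources used here do not say whether counting used the strand, so reads of Nrxn2 and of Gm14964 at ss5 cannot be told apart.

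**Figure D1:**
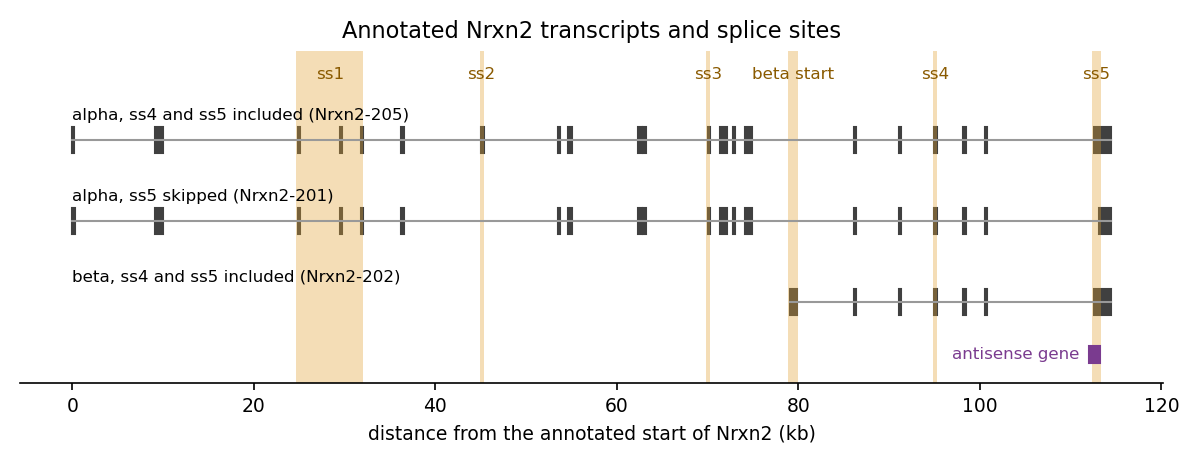
Annotated exons (dark boxes) of 3 Nrxn2 transcripts against the distance from the annotated start of the gene in kb, with the splice sites and the beta first exon shaded and the antisense gene drawn below. The beta start lies at 79.1 kb, after ss3 at 70.1 kb and before ss4 and ss5, the last of which lies at 112.5 kb.

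The Pass libraries held 2.05 to 52.3 M counts, with a median of 11.5 M. Markers of PV interneurons were present throughout. Pvalb, Gad1, Gad2, Slc32a1, Lhx6, Erbb4 and Kcnc1 each had a count in 54 of 54 cells, with a summed level of 1778 to 7771 CPM (counts per 1e6 of the cell's total). Gad1 made up much of this sum, with a median of 3560 CPM beside 4806 CPM for the list. The lowest levels were 1.18 CPM for Pvalb, 0.458 CPM for Lhx6 and 1.24 CPM for Slc32a1. A count in every cell does not set these genes apart, since Sst, Slc17a7, Mbp and C1qa also had one in 54 of 54 cells. Markers of other cells were present at widely differing levels, with summed levels of 97.4 to 12822 CPM for oligodendrocytes, 5.35 to 8445 CPM for microglia, 76.5 to 5020 CPM for astrocytes and 22.6 to 1067 CPM for excitatory neurons. The other lists summed to 8.16 to 7195 CPM for other interneurons, 0 to 165 CPM for oligodendrocyte precursors, 0 to 127 CPM for endothelial cells and 2.35 to 23053 CPM for blood. Of the endothelial genes, Cldn5 had a count in 9 of 54 cells, Ly6c1 in 14, Pecam1 in 17 and Flt1 in 21. Across the 54 cells the Spearman correlation of the Nrxn2 level with the summed level of a marker list lay between -0.18 (microglia) and 0.24 (PV interneurons), and the part of these cells in the Nrxn2 values was not tested.

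Nrxn2 was detected in every PV cell but at very different levels. All 54 cells had at least 2 Nrxn2 counts, with a median of 94 and a maximum of 1076. The level ran from 0.303 to 75.2 CPM with a median of 10.2 CPM, a 248-fold range, and 52 cells reached 1 CPM and 27 reached 10 CPM. Nrxn3, the paralog that these cells express more strongly, spanned a 9.98-fold range over the same cells. The fold ranges are not on a like footing, since the lowest Nrxn2 level is 5 counts in female cell 16 and the lowest Nrxn3 level is 54.7 CPM. Female cells 14 and 7 had 2 and 3 Nrxn2 counts. The Nrxn2 counts were concentrated, since 9 of the 54 cells held 50% of them.

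The cells of each of the 4 pools were spread over much of this range, and only female P42 held cells below 1 CPM. Female P40 cells had 1.11, 10.5 and 48.5 CPM of Nrxn2 (lowest, median and highest). Female P42 cells had 0.303, 10.3 and 59.5 CPM. Male P35 cells had 2.22, 11.7 and 75.2 CPM, and male P36 cells had 1.85, 6.87 and 54.7 CPM. The pools overlapped over most of their range, and their order by median (male P35, female P40, female P42, male P36) is not separated by the spread within any of them. The 5 highest cells were male cell 7 (75.2 CPM), male cell 5 (66.2 CPM), male cell 20 (59.7 CPM), female cell 17 (59.5 CPM) and male cell 25 (54.7 CPM).

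**Figure D2:**
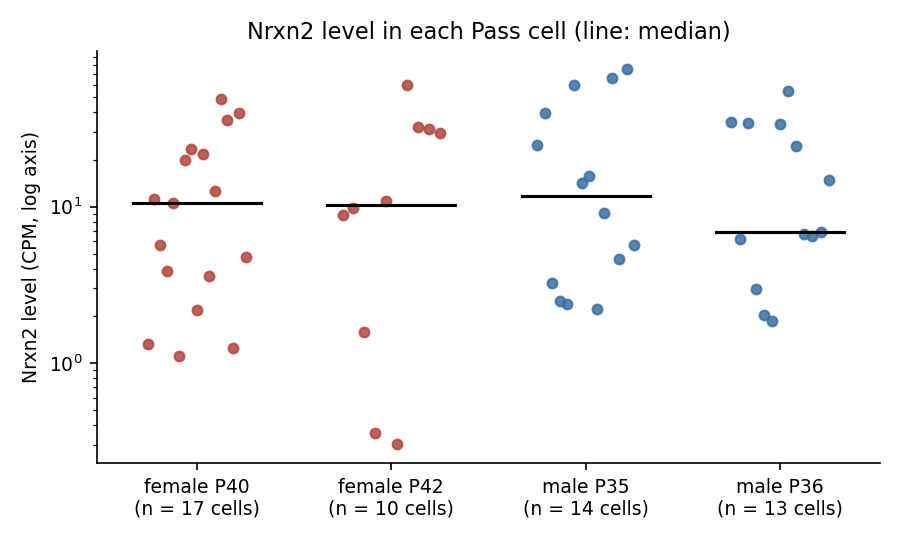
Nrxn2 level in CPM on a log axis for each Pass cell (points) by sex and age, with the median of each pool as a line. The medians lie between 6.87 and 11.7 CPM, the lowest cell of each pool between 0.303 and 2.22 CPM, and the highest between 48.5 and 75.2 CPM.

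With the cells summed into their 4 pools, Nrxn2 stood at 14.3 and 23.1 CPM in the female pools (P40 and P42) and at 20.2 and 17.8 CPM in the male pools (P35 and P36). Pool levels, here and for other genes, are per 1e6 of the pool's total after TMM scaling in edgeR. The male values lay inside the female range. The female minus male log2 difference was -0.02 (SE 0.49, 95% interval -1.16 to 1.12, adjusted p = 0.9999 by Benjamini-Hochberg from edgeR's quasi-likelihood test, 2 pools per sex), so neither a doubling nor a halving is outside the interval. In the same fit 2 of 14933 genes were called, which is 0.0134%, and 823 had an unadjusted p under 0.05.

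Per length of exon, Nrxn2 lay far below Nrxn3. Nrxn2 had 13.8 kb of annotated exon and a median level of 0.736 CPM per kb (0.0219 to 5.44), against 15.3 CPM per kb (4.34 to 43.4) for Nrxn3 with 12.6 kb. The CPM of the paralogs did not move together over the cells, with a Spearman correlation of -0.098 (54 cells). Within the sexes it was -0.46 over 27 female cells and 0.21 over 27 male cells. These values share the cell's total count as denominator and are a description.

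The beta form was the larger class in nearly every cell. Beta exceeded alpha in 50 of 54 cells and alpha exceeded beta in 4. Among the 46 cells whose alpha and beta values summed to at least 10 in the table's own unit, which the sources used here do not state, beta made up more than 50% in 42 (91.3%, exact Clopper-Pearson 95% interval 79.2% to 97.6%, which takes cells as independent although they share animals, and so is too narrow where cells of 1 animal are alike). The median beta share was 97.0%, and 29 cells were at 90% or more, 14 between 10% and 90%, and 3 at 10% or less. In Nrxn3 the balance lay the other way, with a median beta share of 7.59% over 54 cells.

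Female and male cells showed the same picture. Beta passed 50% in 20 of 22 female cells and in 22 of 24 male cells. The pools' beta shares, from summed values, were 93.8% and 86.9% in female P40 and P42 and 91.9% and 89.7% in male P35 and P36. The difference was -0.416 percentage points (exact two-sided permutation test over 4 pools, p = 1, where the smallest p that 2 pools against 2 allow is 0.333). It became 5.75 points without female cell 20 and -4.53 points without female cell 18.

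**Figure D3:**
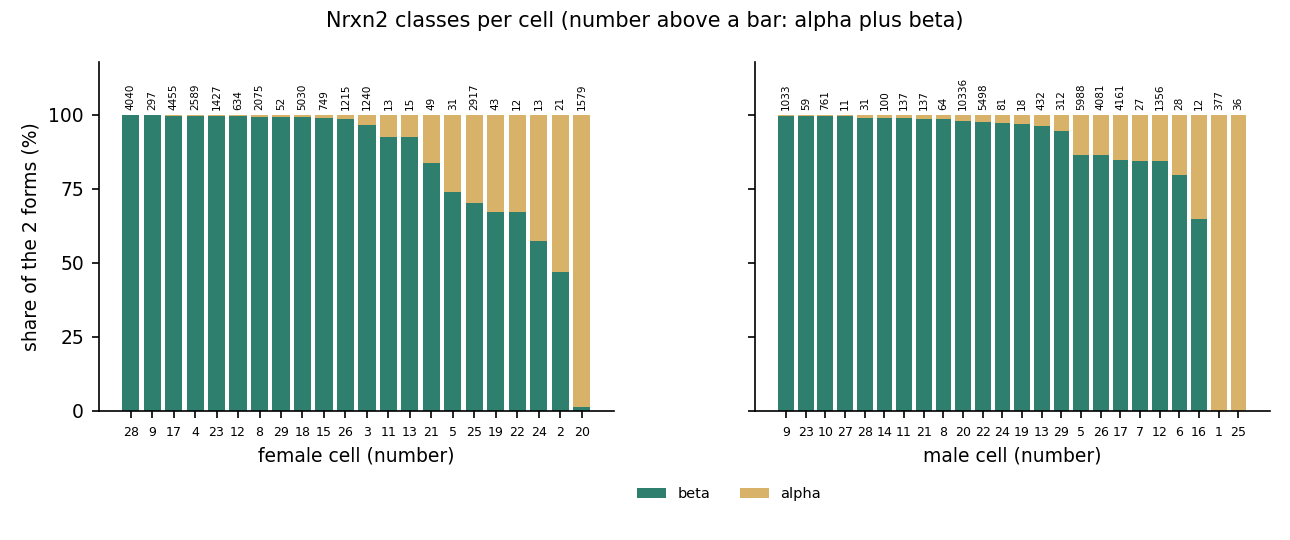
Beta share (green) and alpha share (sand) in percent for the 22 female cells and 24 male cells whose alpha and beta values sum to at least 10, ordered by beta share, with that sum printed above each bar. Beta fills more than 50% of 42 bars, and female cell 20, male cell 1 and male cell 25 are almost wholly alpha.

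The alpha signal came from few cells. Female cell 20 had an alpha value of 1556 and a beta value of 23.02, and it alone held 95.1% of the alpha signal of female P42. Female cell 25, with 865 alpha and 2052 beta, held 87.5% of that of female P40. Male cell 1 had 377 alpha and male cell 25 had 36.4 alpha, both with beta at 0. An alpha value of at least 100 occurred in 9 cells, and in 7 of these beta was still the larger value, so most cells with much alpha also held more beta.

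The alpha-only splice sites can be set beside the class values, but both come from the same reads. The sources used here do not say whether these sites entered the alpha value, so this is not independent support. Of the 9 cells with an alpha value of at least 100, 8 had ss1 signal, against 3 of the other 45 cells. The alpha value also rose with the Nrxn2 count (Spearman correlation 0.73 over 54 cells), and the part of the count in this contrast was not tested. Where these sites had any signal above 0 they were nearly uniform, here without the minimum of 10. Site ss1 was always included (11 of 11 cells), and ss3 was included in 15 of 16 cells, the exception being female cell 18 with a skipped value of 2. Site ss2 was skipped in both cells with signal, at totals of 1 and 6. A total of at least 10 was reached in 5 cells at ss1 and 4 at ss3, all with the included form only. Smaller totals, down to 0.5 at ss3 in female cell 16, can hardly show 2 forms. The readings did not always go together. Female cell 17 had an ss3 included value of 53.0, the highest of all cells, but an alpha value of 11.9 beside a beta value of 4443. Of the 13 cells whose ss1 to ss3 values summed to at least 5, beta made up more than 50% of the class sum in 10.

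At ss4 most cells used 1 form almost exclusively, and cells differed in which. Some ss4 signal was present in 38 of 54 cells and a summed value of at least 10 in 24. Of these 24 cells, 13 included ss4 at 90% or more (54.2%, exact interval 32.8% to 74.4%), 8 at 10% or less (33.3%, interval 15.6% to 55.3%), and 3 lay between (12.5%). Both forms were seen in 8 of the 24 cells, included only in 9 and skipped only in 7.

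Cells at both ends had high summed values. Male cell 20 had an included value of 165 and a skipped value of 0, male cell 16 had 126 and 0, and female cell 4 had 117 and 0. At the other end, female cell 28 had an included value of 0 and a skipped value of 98, and female cell 17 had 0 and 82. The ss4 exon was thus read in all ss4 signal of some cells and in none of that of others with similar totals. The 3 cells in between were female cell 25 (23 included, 12 skipped), female cell 18 (23 included, 83 skipped) and male cell 26 (11 included, 35 skipped). In Nrxn3 the ss4 exon was included at 90% or more in 43 of 45 cells, and at its site ss5 31 of 49 cells lay between 10% and 90%. At the other sites of Nrxn3 fewer cells lay between, 3 of 29 at ss1, 0 of 36 at ss2 and 7 of 36 at ss3. The median total was 57.0 for Nrxn3 ss5 and 44.5 for Nrxn2 ss4, but like totals need not mean like numbers of RNA molecules. The median level was 193 CPM for Nrxn3 and 10.2 CPM for Nrxn2, and the part of molecule number in these shares was not tested.

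**Figure D4:**
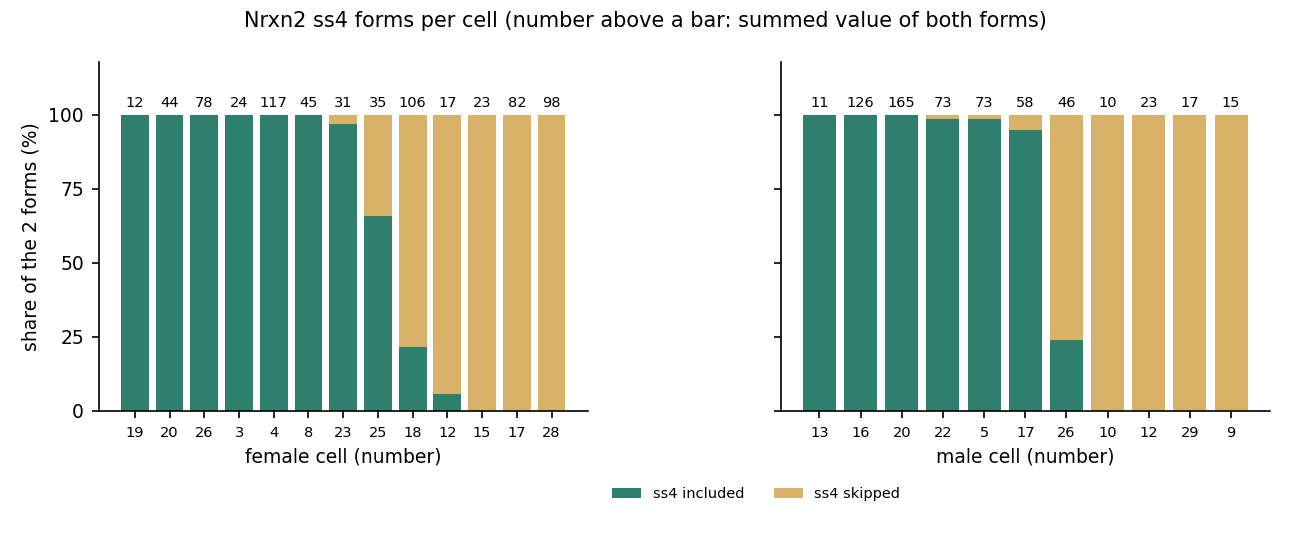
Included (green) and skipped (sand) share of Nrxn2 ss4 in percent for the 13 female cells and 11 male cells with a summed value of at least 10, ordered by included share, with the summed value above each bar. The bars are close to 100% or to 0% except in female cells 25 and 18 and male cell 26.

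At a total of at least 10, both sexes held cells of both kinds. Of 13 female cells, 7 included ss4 at 90% or more, 4 at 10% or less and 2 lay between, and of 11 male cells 6, 4 and 1 did. At a total of at least 50 this held for female cells only, with 2 at 90% or more, 2 at 10% or less and 1 between, whereas all 5 male cells were at 90% or more. Over both sexes 7 of these 10 cells (70%) were then at 90% or more and 2 (20%) at 10% or less. By pool the cells at 90% or more were 5 of 7 in female P40, 2 of 6 in female P42, 4 of 4 in male P35 and 2 of 7 in male P36. The pools' included shares, from summed values, were 72.8% and 28.3% in female P40 and P42 and 96.8% and 59.4% in male P35 and P36. The pools overlapped, and the difference of -27.5 percentage points had p = 0.667 in the exact two-sided permutation test, whose smallest p is 0.333.

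Single cells set these pool shares. Male cell 16 held 84.6% of the included signal of male P36, and female cell 28 held 82.4% of the skipped signal of female P40. Without male cell 16 the difference was -7.04 points, and without female cell 28 it was -17.0 points. It ranged from -49.8 points without female P40 to -5.27 points without female P42, was -8.79 points without male P35 and -46.3 points without male P36, and was -6.70 points as a mean over cells. It was -13.3 points with each cell's values divided by its total count and -59.9 points over the cells with a total of at least 50.

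At ss5 the skipped form prevailed in all readable cells. Of 22 cells with a summed ss5 value of at least 10, 21 included ss5 at 10% or less (95.5%, exact interval 77.2% to 99.9%) and none at 90% or more (0 of 22, interval 0% to 15.4%). The exception was female cell 25 with 5 included and 16 skipped (23.8%), a cell that was also mixed at ss4. The highest skipped values were 378 in male cell 16, 163 in female cell 20, 138 in female cell 17 and 132 in female cell 4, each beside an included value of 0. Over all 41 cells with any ss5 signal, 33 were at 10% or less, 4 between and 4 at 90% or more. The last 4 had totals below 10, for example 6 in female cell 3 and 2 in female cell 15.

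The pools' ss5 included shares were 5.63% and 1.88% in female P40 and P42 and 1.49% and 1.82% in male P35 and P36. The female values both lay above the male ones, but the difference of 2.10 points had the smallest p the design allows (exact two-sided permutation test, p = 0.333). It turned to -0.867 points without male cell 16, which held 77.9% of the skipped signal of male P36. It was 0.226 points without female P40, 3.98 points without female P42, 1.29 points without female cell 3, 3.77 points without female cell 4, 0.415 points as a mean over cells and 0.975 points with values divided by total counts.

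At ss5 the cells differed too little to show whether the choice at ss4 was matched there. In the 19 cells with at least 10 at both sites, 11 combined ss4 at 90% or more with ss5 at 10% or less, and 5 combined ss4 at 10% or less with ss5 at 10% or less. Of the remaining cells, 2 were mixed at ss4 with ss5 at 10% or less, and 1 was female cell 25. Female cell 4 (117 ss4 included, 132 ss5 skipped) and female cell 28 (98 ss4 skipped, 56 ss5 skipped) show both combinations within 1 pool.

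The gene count and the isoform values largely rose together. Over 54 cells the Spearman correlation of the Nrxn2 count with the alpha plus beta sum was 0.76 (0.89 over 27 female cells, 0.56 over 27 male cells), with the ss4 total 0.76 and with the ss5 total 0.81. These measures come from the same reads, so they describe how the tables relate. Of the 19 cells with at least 200 Nrxn2 counts, 15 had a class sum of at least 1000 and 17 had at least 10 at ss4, and likewise 17 at ss5. Of the 35 cells below 200 counts, 7 reached 10 at ss4 and 5 at ss5, so the splice results describe mainly the cells with high Nrxn2 counts.

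The class sum departed from the count in 4 cells with at least 200 counts. Male cell 16 had 979 counts, an ss4 total of 126 and an ss5 total of 378, but a class sum of only 11.5. Male cell 25 had 596 counts and a class sum of 36.4, with ss4 and ss5 at 1 each. Female cell 19 had 472 counts, a class sum of 42.6, an ss4 included value of 12 and an ss5 skipped value of 66. Male cell 7 had 242 counts, a class sum of 27.0 and an ss5 skipped value of 61 with no ss4 signal. In 3 of these 4 cells there was thus shared splice site signal without a matching class value, and over all 54 cells the class sum per count ran from 0.0118 to 13.5. The beta shares of these 4 cells rest on these small sums.

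**Figure D5:**
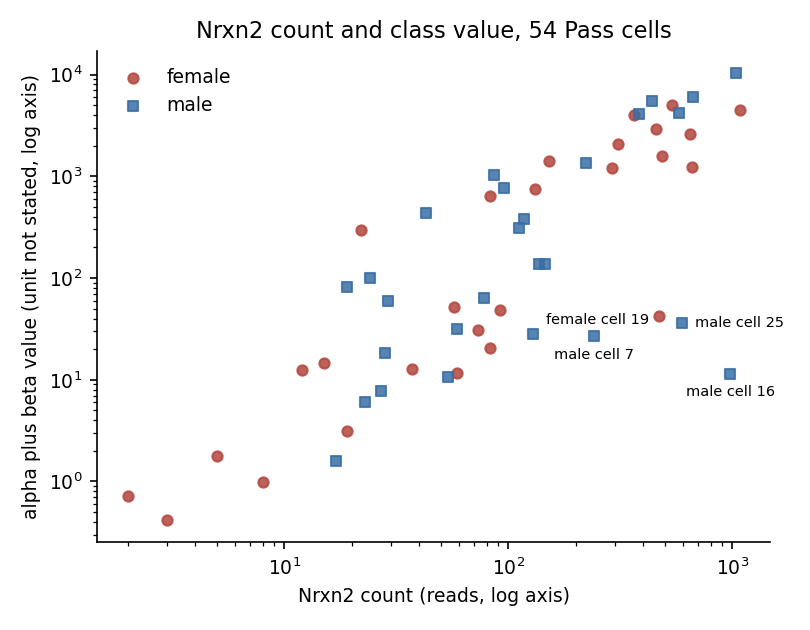
Nrxn2 count (x axis, reads) against the summed alpha and beta value (y axis, unit not stated), both on log axes, for 27 female cells (circles) and 27 male cells (squares). The values largely climb together but scatter widely (Spearman correlation 0.76). For example, female cells 2 and 12 have 83 counts each and class sums of 20.5 and 634. The 4 named cells are those with at least 200 counts but a class sum below 50.

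Across the ways of measuring it, the Nrxn2 level had no steady relation to the beta share. In CPM, its correlation with the ss5 share was negative throughout, from -0.062 to -0.42. That with the ss4 share was positive throughout but small in CPM, from 0.10 (38 cells with any ss4 signal) to 0.24. The Spearman correlation of CPM with the beta share was -0.10 over 46 cells, 0.21 over 22 female cells and -0.44 over 24 male cells, and the direction thus differed between the sexes. With the ss4 included share it was 0.17 over 24 cells, and 0.24 and 0.15 over 13 female and 11 male cells. With the ss5 included share it was -0.20 over 22 cells, and -0.062 and -0.31 over 12 female and 10 male cells. Over the 14 cells with an ss5 total of at least 50 it was -0.42. The deposited normalized value in place of CPM gave 0.40 for ss4 (24 cells) and 0.032 for ss5 (22 cells). That value is each count times a factor of 0.866 to 1.32 per cell. Unlike CPM it is thus hardly scaled to the cell's total count. The total count itself had a Spearman correlation of 0.26 with the ss4 share (24 cells), and its part in the 0.40 was not tested. The correlations are descriptions over cells that share animals and amplification, and they are weak in sparse values.

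Over the cells of both sexes, depth and the membrane values recorded from the same cells gave weak correlations with the Nrxn2 level. Spearman's rho was 0.11 with the total count (54 cells), 0.22 with the resting potential, 0.084 with the membrane resistance and -0.23 with the membrane capacitance (49 cells each). For capacitance it was -0.48 over 24 female cells and -0.15 over 25 male cells, and for resting potential 0.32 over 22 and 0.21 over 27. The direction differed between the sexes for the total count (0.32 over 27 female cells, -0.12 over 27 male cells). It also differed for resistance (0.32 over 24 female cells, -0.050 over 25 male cells). The ss4 included share had rho of -0.074 with resting potential (21 cells), 0.23 with resistance and -0.30 with capacitance (22 cells each).

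The genes whose level was most like that of Nrxn2 over the 54 cells were modest in their likeness. Among 12713 genes with a count in at least 27 cells, rho ran from -0.57 to 0.51 with a median of -0.023. The highest were Gucy1a3, a subunit of the nitric oxide receptor guanylate cyclase (0.51), Fuom, a fucose mutarotase (0.49), Zfp346, a zinc finger protein (0.48), Axin1, a scaffold of the beta-catenin destruction complex (0.47), and Gad2, a GABA-synthesising enzyme (0.46). Yipf4, a Golgi membrane protein (0.45), Acadm, an enzyme of fatty acid oxidation (0.45), and Man1c1, a Golgi mannosidase (0.44), followed. The lowest were Zfp667, a zinc finger protein (-0.57), Pld4, a member of the phospholipase D family (-0.53), Elf2, an ETS transcription factor (-0.49), and Gpatch8, a G-patch protein (-0.48). Of the 8 highest, 7 were among the top 100 genes within female cells and 3 within male cells.

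None of the listed neurexin partners was called between the sexes. Of 33 listed partners, 29 were tested and 0 passed edgeR's quasi-likelihood test, with 11 positive and 18 negative log2 differences and a median of -0.25, beside 0.0044 over all 14933 genes. An unadjusted p under 0.05 was found for 2 of the 29, near the share over all genes (823 of 14933, 5.51%), and with 0.0134% of all genes called, 0 is the count a list of this size would mostly give. Lrrtm1, a postsynaptic leucine-rich repeat partner, had 15.2 and 22.7 CPM in the female pools and 61.1 and 67.4 CPM in the male pools (log2 difference -1.76, SE 0.35, edgeR adjusted p = 0.806). C1ql2, a secreted partner, was detected in 15 cells, with 0.0952 and 0.00814 CPM in the female and 0.575 and 3.96 CPM in the male pools (edgeR adjusted p = 0.899).

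From cell to cell the partners gave weak correlations with the Nrxn2 level. The median rho was 0.041 over the 27 partners with a count in at least 27 cells, of which 17 were above 0, beside a median of -0.023 and 5535 of 12713 above 0 over all genes compared. The highest were Fam19a2, a secreted neurexin ligand (0.25), Clstn3, a postsynaptic calsyntenin (0.19), and Apba2, a cytosolic adaptor of the Mint family (0.14). The lowest were Nlgn1, a postsynaptic neuroligin (-0.15), and Cask, a cytosolic kinase-like scaffold (-0.15).

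Splicing regulators were likewise uncalled. All 17 were tested and 0 passed, with 11 positive and 6 negative log2 differences and a median of 0.043, beside 0.0044 over all genes. With 0.0134% of all genes called, 0 of 17 does not set the list apart, and 2 had an unadjusted p under 0.05, beside 5.51% of all genes. Ptbp1, a repressor of neuronal exons, had 36.3 and 21.3 CPM in the female and 8.16 and 13.5 CPM in the male pools (log2 difference 1.41, SE 0.53, edgeR adjusted p = 0.887). Rbfox3, a neuronal splicing factor, had 59.0 and 47.3 CPM in the female and 73.6 and 93.3 CPM in the male pools (log2 difference -0.65, SE 0.27, edgeR adjusted p = 0.899). Over cells, rho with the Nrxn2 level was highest for Celf4 (0.22), Nova2 (0.19) and Khdrbs1 (0.14) and lowest for Mbnl1 (-0.23) and Rbfox1 (-0.23), RNA-binding proteins of neurons and other cells. The STAR-family proteins Sam68, SLM1 and SLM2, encoded by Khdrbs1, Khdrbs2 and Khdrbs3 and known to regulate neurexin ss4 in mouse, had rho of 0.37, -0.40 and -0.052 with the Nrxn2 ss4 included share over 24 cells.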

How the data were processed

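Cytosol of single cells was harvested by patch pipette and sequenced from Nextera XT libraries, per the labels' protocols. STAR, edgeR and GRCm38 are named in the submitters' processing notes; their versions and roles, the counting tool, annotation and strand setting are not stated. The deposited gene table holds raw counts. The authors' normalized table holds a signal, each count times 1 factor per cell (0.866 to 1.32), and the deposited isoform table a signal of unstated unit that is whole in 99.1% of splice site values but in 3.70% of class values. The 54 Pass cells formed 4 pools, 1 for each sex and age, whose summed counts were tested with edgeR 4.0.16 (quasi-likelihood, TMM, two-sided, Benjamini-Hochberg, threshold 0.05, R 4.3.3) over 14933 genes with a count in at least 10 cells that passed filterByExpr. A pool can hold several animals, so p-values measure the spread between these pools only. Cells were not used as replicates in tests. Form shares were described in cells whose forms summed to at least 10, and pool shares were compared with exact permutation tests. Intervals are exact binomial at 95% over cells taken as independent; reads without molecular identifiers are not independent molecules. Alternatives were RLE scaling, no filter, limma 3.58.1, DESeq2 1.42.0, signal minimums and leaving out pools or cells. The named genes are Nrxn2, Nrxn3, the 8 most and 4 least correlated genes (predicted genes left out), and from each list the 3 highest and 2 lowest correlations and the 2 smallest p. Khdrbs2 and Khdrbs3, and the cells named in the text, were chosen after their values were seen. The gene and the lists were chosen with earlier results of these data known. The sequence at ss4 is not reported here.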

Additional observations from a re-analysis of the deposited data

Results flagged for a closer look

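Nrxn2 counts were also present in 3 of the 4 cells labelled Fail, which entered no comparison, at more than 3 counts: 16 in female cell 6, 35 in male cell 3 and 9 in male cell 4. These libraries held 0.545, 0.836 and 0.596 M counts, fewer than any Pass cell, and the counts correspond to 29.3, 41.9 and 15.1 CPM. Their beta shares were 99.2%, 98.1% and 98.5%. The other Fail library, female cell 10, had 1 Nrxn2 count among 5.08 M counts.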

How the results depend on the processing

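The female minus male level difference of -0.02 (log2) had an edgeR adjusted p near 1 throughout; leaving out 1 pool or cell gave -0.39 (without female P42) to 0.29 (without female P40), with 21 of these values above 0. The beta share difference was 1.43 points with values divided by total counts and -4.53 to 5.75 points when 1 pool or cell was left out, being above 0 without female P42, male P35, female cells 20 and 25, or male cells 9, 10, 20 and 22. The ss4 difference kept its direction in all alternatives (-49.8 to -5.27 points on leaving out 1 pool or cell), and the ss5 difference ran from -0.867 to 3.98 points, below 0 only without male cell 16. Cells with ss5 at 10% or less made up 100% of the 14 cells with a total of at least 50. Between the sexes 2 genes were called, 111 with no filter on low counts, 179 with DESeq2, and 0 (445 at an unadjusted p under 0.05 by edgeR, without male P36) to 21 (without female P40) with 1 pool left out. The correlation of level and beta share was 0.21 within female cells and 0.088 over all 54 cells. That of level and ss5 share was negative in every CPM setting. It was 0.032 with the deposited normalized values, which are hardly scaled to each cell's total count. The cause of these changes was not tested. No paired analysis was possible because the numbers only name cells. Splice signal was read mainly in cells with high Nrxn2 counts.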
